A study of Mus musculus with 18 samples.

Results

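Conventional type 2 dendritic cells (cDC2) and plasmacytoid dendritic cells (pDC) of the mouse spleen were compared across their whole transcriptomes. The comparison took all 6 samples of the cDC2 count table and all 6 of the pDC count table, 12 of the 18 samples of the series, over the 15375 genes that both tables list. The series was made to study loss of the histone deacetylase HDAC1 in dendritic cells. Each subset came from 3 samples labelled HDAC1 floxed, whose Hdac1 gene carries recombination sites but no recombinase, and 3 labelled HDAC1 Mx1-Cre, in which the interferon-inducible Mx1 promoter drives Cre. Samples of both genotypes were from mice given PolyI/C, a double-stranded RNA mimic that switches the promoter on through interferon, and the cells were sorted 2 weeks later. The count columns carry codes that give the subset but no genotype, so the 3 control and 3 knockout samples of a subset stand together here, and the spread within a subset contains any effect of genotype. The labels do not say whether samples came from separate mice, and p-values then measure the spread between these samples only.

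The sort gates define what the subsets are. The cDC2 gate took lineage-negative cells that were positive for CD11c, MHC class II and CD11b and negative for CD64 and XCR1. The pDC gate took lineage-negative, CD64-negative cells with intermediate CD11c, no CD11b and surface BST2. Itgam, which encodes CD11b, and Itgax, Bst2, Fcgr1, Xcr1 and the MHC class II genes therefore served the choice of cells, and their values are a description of the sort.

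cDC2 are antigen-presenting cells that take up material in the spleen's marginal zone and prime CD4 T cells. pDC are round, secretory cells that sense viral nucleic acids in endosomes through TLR7 and TLR9 and release large amounts of type I interferon. The E protein TCF4, also called E2-2, holds the pDC programme in place, and the inhibitor of E proteins ID2, with ZBTB46, marks conventional dendritic cells.

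Depth ran from 24453121 to 33820524 counts per sample, and 13042 genes had enough counts to be tested. The first principal component held 86% of the variance and separated the subsets, with every cDC2 sample on one side and every pDC sample on the other. No 2 columns were copies of each other. The 10 most abundant genes took between 10.76% and 22.2% of a library's counts, with all cDC2 libraries above all pDC libraries. Normalization between the subsets (trimmed mean of M values, TMM) gave factors of 0.888 to 0.974 in cDC2 and 1.02 to 1.125 in pDC. In the text, levels are CPM, counts scaled to the same TMM-corrected library total, 3 values in a row are the lowest, the median and the highest of 6 samples, and each difference is the log2 of cDC2 over pDC ± its standard error. Levels are not compared between genes, because counts were not divided by gene length. In bulk RNA, fewer cells that make a transcript and less of it per cell cannot be told apart.

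A large share of the transcriptome differed. Of the 13042 genes, 8874 (68%) passed an adjusted p under 0.05 in edgeR's quasi-likelihood test, 4464 (34.2%) higher in cDC2 and 4410 (33.8%) higher in pDC. The shares with at least a 2-fold difference were 17.4% higher in cDC2 (2267 genes) and 12.7% higher in pDC (1657 genes). The balance of directions rests on the scaling. With TMM, 50.3% of called genes were higher in cDC2 and the median log2 difference of all genes was 0.0091. With libraries scaled by their total count alone, the median was -0.21 and 36.4% of 9281 called genes were higher in cDC2. Where total-count scaling moved a gene group's count in either direction by 2 or more genes, its counts are given with both scalings. The 34.2% and 33.8% of all genes are the shares to set beside each gene group's TMM counts. They do not serve for the counts with total-count scaling, where most called genes of the whole transcriptome were higher in pDC. Those counts stand against the 36.4% of 9281 called genes that were higher in cDC2.

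**Figure D1:**
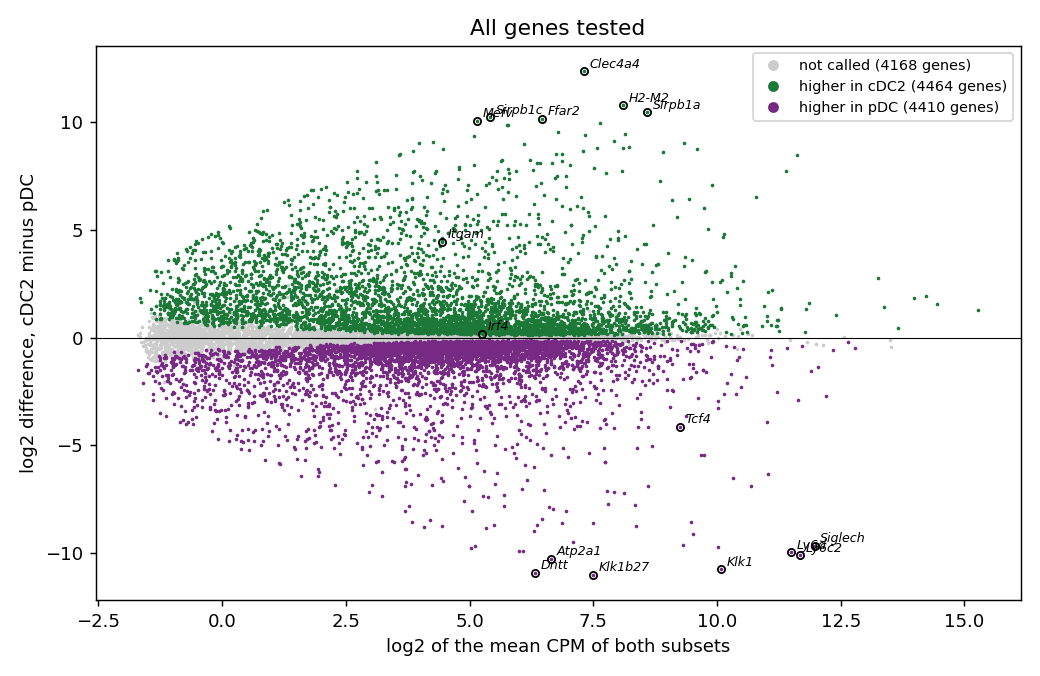
Log2 difference (cDC2 minus pDC) against the log2 of the mean CPM of both subsets, with 1 point per gene for the 13042 genes tested. Called genes spread on both sides of 0 at every level of abundance, and the genes named on the plot reach from Clec4a4 at the top to Klk1b27 at the bottom, while Irf4 lies among the genes that were not called.

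Of the 4 genes taken as subset markers, 3 followed the labels. Siglech, the endocytic lectin that is the usual surface marker of mouse pDC, had 5.82, 10.99 and 13.0 CPM in cDC2 and 7215, 7903 and 9127 CPM in pDC. The groups lay far apart, with a difference of -9.67 ± 0.25 (adjusted p = 1.65e-13). Tcf4 had 58.4, 64.2 and 79.8 CPM in cDC2 and 1114, 1154 and 1197 CPM in pDC, a difference of -4.13 ± 0.09 (adjusted p = 6.58e-15), again without overlap. The sort gene Itgam had 35.7, 41.3 and 51.9 CPM in cDC2 and 0.401, 2.01 and 3.13 CPM in pDC, without overlap. Its exons overlap those of the predicted gene Gm49368 on the same strand, so its reads may be shared with that gene.

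Irf4 did not separate the subsets. This interferon regulatory factor is widely used to tell cDC2 from cDC1, and here it had 26.5, 36.6 and 64.8 CPM in cDC2 and 23.7, 35.4 and 47.2 CPM in pDC. The ranges overlapped, and the difference of 0.18 ± 0.23 did not pass the test (adjusted p = 0.513). In the cDC1 samples of the series, on a scale shared by all 18 libraries, Irf4 lay between 3.73 and 13.83 CPM with a median of 6.42. On that scale its median was 35.7 CPM in cDC2 and 35.03 CPM in pDC.

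**Figure D2:**
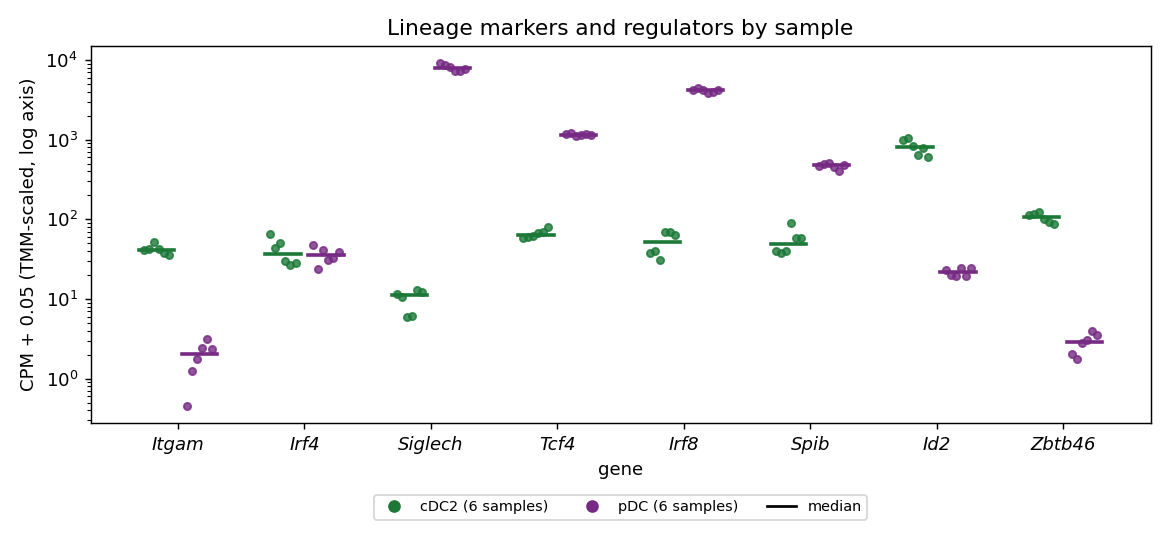
CPM plus 0.05 on a log axis for 8 lineage genes, with 1 point per sample and a bar at each group's median (6 cDC2, 6 pDC). The groups stand apart for every gene plotted except Irf4, whose points overlap between 26.5 and 47.2 CPM.

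Many of the genes with the greatest excess in cDC2 encode cell-surface receptors of myeloid cells. Clec4a4, which encodes the lectin DCIR2 that marks splenic cDC2, had 261, 332 and 338 CPM in cDC2 and 0, 0.0553 and 0.117 CPM in pDC, where all 6 libraries together held 10 counts. Its difference of 12.37 ± 0.18 (adjusted p = 4.64e-16) therefore rests on a very small denominator. The neighbouring lectin Clec4a1 had 72.6, 103 and 145 CPM in cDC2 and at most 0.199 CPM in pDC, a difference of 9.86 ± 0.33 (adjusted p = 7.57e-12). H2-M2, a nonclassical MHC class I gene, had 415, 537 and 753 CPM in cDC2 and at most 0.419 CPM in pDC (10.79 ± 0.22, adjusted p = 9.3e-15). The 12 leading genes of each subset were chosen among called genes with at least 50 CPM in the higher subset and non-overlapping groups. Their lack of overlap and their passing p-values therefore follow from the choice.

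Other receptors, enzymes and survival genes complete the 12 leading genes of cDC2. The signal-regulatory protein genes Sirpb1a (10.46 ± 0.17), Sirpb1b (9.54 ± 0.22) and Sirpb1c (10.22 ± 0.38) and their relative Gm9733 (9.95 ± 0.45) are close copies, so the split of reads among them is uncertain. Sirpb1a alone had 724, 767 and 842 CPM in cDC2 and 0.256, 0.561 and 0.857 CPM in pDC. Single genes were Ffar2, a receptor for short-chain fatty acids (10.15 ± 0.30), Mefv, which encodes the inflammasome sensor pyrin (10.08 ± 0.28), and Tgm2, tissue transglutaminase (9.42 ± 0.32). Lyz1 (9.86 ± 0.72), a lysozyme gene, and Bcl2a1a (9.47 ± 0.33), which encodes a BCL2-family survival protein, each have near-identical neighbours that could take part of their reads. The adjusted p-values of all of them lay between 1.01e-15 and 9.43e-08, after a choice that required a pass and non-overlapping groups.

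In cDC1 the medians of these 12 genes lay between those of cDC2 and pDC. On the scale of all 18 libraries, Clec4a4 had a median of 5.27 CPM in cDC1 against 323 CPM in cDC2. Sirpb1a had 11.2 CPM in cDC1 against 753.3 CPM in cDC2. Bcl2a1a was close in the conventional subsets, at 434.5 CPM in cDC1 (325.2 to 676.1) and 532.2 CPM in cDC2, with 0.71 CPM in pDC.

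The leading genes of pDC were of another kind, with proteases, lymphoid genes and surface molecules among them. Klk1b27 had 0.0410, 0.186 and 0.280 CPM in cDC2 and 246, 354 and 462 CPM in pDC, a difference of -11.03 ± 0.25 (adjusted p = 5.47e-14). Klk1, a tissue kallikrein of the same gene cluster, had 0.671, 0.794 and 3.68 CPM in cDC2 and 1291, 2098 and 3089 CPM in pDC (-10.76 ± 0.51, adjusted p = 6.79e-10). These are paralogs, and reads may be split between them. Dntt, which encodes the terminal deoxynucleotidyl transferase of lymphocyte receptor rearrangement, had 0, 0.0361 and 0.308 CPM in cDC2 and 132, 165.03 and 173.5 CPM in pDC (-10.92 ± 0.27, adjusted p = 1.34e-13). In all 3 genes, chosen for groups that do not overlap, the lowest pDC sample was far above the highest cDC2 sample.

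Surface molecules followed. Ly6c2 (-10.11 ± 0.24) had 5991, 6672 and 7196 CPM in pDC, and Ly6d (-9.97 ± 0.36), a marker of lymphoid progenitors and pDC, 5419, 5690.5 and 6213 CPM, both against medians of at most 6.14 CPM in cDC2. Tbxa2r, the thromboxane A2 receptor, differed by -9.75 ± 0.19 and Grm8, a metabotropic glutamate receptor, by -9.70 ± 0.20. Atp2a1, a sarcoplasmic calcium pump of muscle, had 189, 201 and 209 CPM in pDC and 0.0423, 0.123 and 0.385 CPM in cDC2 (-10.28 ± 0.17, adjusted p = 1.01e-15). Sh3bgr (-9.89 ± 0.17) and the predicted gene Gm12253 (-9.90 ± 0.62) were also among the leading genes. On the scale of all 18 libraries, medians in cDC1 were 0.99 CPM for Klk1, 0.28 CPM for Atp2a1 and 25.1 CPM for Ly6c2, so these genes were lower in both conventional subsets than in pDC.

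The promoters of 4 leading genes show what lies before genes that are nearly silent in the opposite subset. They are the 250 bases before the start site from RefSeq on GRCm38.p6, read 5′ to 3′ on the gene's strand, with motif letters in capitals. Siglech is at chr7:55767934-55768183 (plus strand), Klk1 at chr7:44225110-44225359 (plus strand), Klk1b27 at chr7:44052040-44052289 (plus strand) and Clec4a1 at chr6:122921598-122921847 (plus strand).
Siglech: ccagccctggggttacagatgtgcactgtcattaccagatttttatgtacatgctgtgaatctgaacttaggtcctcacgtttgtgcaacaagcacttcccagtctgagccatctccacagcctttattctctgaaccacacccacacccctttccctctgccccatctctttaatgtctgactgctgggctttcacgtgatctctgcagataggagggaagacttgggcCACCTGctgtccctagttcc
Klk1: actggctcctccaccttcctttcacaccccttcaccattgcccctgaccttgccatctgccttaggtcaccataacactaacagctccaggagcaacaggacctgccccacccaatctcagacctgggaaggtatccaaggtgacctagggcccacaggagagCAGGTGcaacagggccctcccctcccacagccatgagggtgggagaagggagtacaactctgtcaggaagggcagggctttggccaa
Klk1b27: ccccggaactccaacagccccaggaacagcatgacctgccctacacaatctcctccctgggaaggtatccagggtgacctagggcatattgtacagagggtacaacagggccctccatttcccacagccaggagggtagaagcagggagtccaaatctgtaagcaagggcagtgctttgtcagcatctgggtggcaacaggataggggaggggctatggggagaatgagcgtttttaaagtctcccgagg
Clec4a1: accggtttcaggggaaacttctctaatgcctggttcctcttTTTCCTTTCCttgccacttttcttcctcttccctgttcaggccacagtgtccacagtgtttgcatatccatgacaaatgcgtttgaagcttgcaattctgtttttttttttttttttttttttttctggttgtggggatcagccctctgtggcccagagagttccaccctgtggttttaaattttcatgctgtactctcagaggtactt
The capitals in Siglech and Klk1 are the E-box CAGGTG or its reverse complement, a sequence that E proteins can bind, at -20 and -87 from the start site. Klk1b27 has none in these bases. The capitals in Clec4a1 are the reverse complement of GGAANNGAAA, a composite element for ETS and IRF factors, at -209. Among the 12 leading genes of each subset, 9 have a RefSeq promoter. In the window that also takes 50 bases after the start site, 1 of the 9 of cDC2, the one shown, holds the composite element. The E-box is in 3 of the 9 of pDC, which are the pDC genes chosen for display, although the printed bases hold it only for Siglech and Klk1. It is in 1 of the 9 of cDC2, so most leading genes of either subset lack these letters.

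The E-box and 2 other motifs were searched on both strands in the window from 250 bases before to 50 after a start site. The search covered 10350 tested genes with a RefSeq promoter, taking the first promoter listed for each. Genes on chromosome 18, Tcf4 among them, were left out of the search. The E-box was present in 17.1% of these promoters, in 17.5% of those of genes at least 2-fold higher in cDC2 and in 21.4% of those at least 2-fold higher in pDC. The composite element GGAANNGAAA was present in 2.65%, 3.52% and 2.59% of the same sets. An interferon response element, GAAANNGAAA, was present in 3.39%, 5.29% and 2.59%. The last motif can overlap the composite element. These shares describe letters in the windows and carry no test.

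The pDC identity genes were higher in pDC almost without exception. Of 32 tested, 31 were called higher in pDC and none higher in cDC2, with a median log2 difference of -7.45, against 33.8% of all genes. Tspan13 did not follow, with 1158, 1302 and 1582 CPM in cDC2 and 1085, 1255 and 1316 CPM in pDC (0.11 ± 0.09, adjusted p = 0.285). Ccr9, the receptor that guides pDC to the gut, had 5.75, 6.26 and 7.60 CPM in cDC2 and 674, 761 and 892 CPM in pDC (-6.91 ± 0.11, adjusted p = 1e-15). Cox6a2, a muscle-type subunit of cytochrome c oxidase, had 1.00, 1.41 and 2.69 CPM in cDC2 and 1158, 1222 and 1471 CPM in pDC (-9.62 ± 0.23, adjusted p = 6.22e-14), and its exons overlap those of Itgad on the opposite strand. Lag3, an inhibitory receptor, had 1.68, 3.10 and 4.14 CPM in cDC2 and 12.9, 14.6 and 17.99 CPM in pDC (-2.35 ± 0.19). The sort gene Bst2 had 24.8, 37.6 and 45.3 CPM in cDC2 and 1392, 1555 and 1993 CPM in pDC.

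The cDC2 identity genes were less uniform. Of 28 tested, 20 were higher in cDC2, 5 were higher in pDC and 3 were not called, with a median of 3.73, against 34.2% and 33.8% of all genes. Esam, an adhesion molecule that marks the Notch2-dependent cDC2 of the spleen, had 55.3, 70.6 and 85.0 CPM in cDC2 and 0.224, 0.385 and 2.32 CPM in pDC (6.68 ± 0.40, adjusted p = 7.51e-09). Clec4a2 (8.11 ± 0.11), Adam23 (8.11 ± 0.26), Dtx1 (7.84 ± 0.51), Csf1r, the receptor of colony-stimulating factor 1 (7.0 ± 0.46), the fractalkine receptor gene Cx3cr1 (4.84 ± 0.27) and the leukotriene B4 receptor gene Ltb4r1 (6.0 ± 0.49) were also higher in cDC2. Csf1r spread from 112 to 379 CPM among the cDC2 samples, and Dtx1 from 48.9 to 180.3 CPM.

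Among the cDC2 identity genes that were higher in pDC, Clec10a had 6.84, 18.6 and 37.6 CPM in cDC2 and 324, 379.8 and 416 CPM in pDC (-4.2 ± 0.44, adjusted p = 3.08e-06). It encodes a galactose-type lectin of myeloid cells, and its groups were fully apart. Cd209a, which encodes the lectin DC-SIGN, had 323, 419 and 621 CPM in cDC2 and 742, 992 and 1274 CPM in pDC (-1.22 ± 0.16, adjusted p = 6.64e-06). Rnase6, a secreted ribonuclease, differed by -2.62 ± 0.16 (adjusted p = 1.44e-09). Cd4, present on splenic cDC2 and on pDC, had 117, 145 and 185 CPM in cDC2 and 195, 248.5 and 327 CPM in pDC (-0.79 ± 0.13). Mgl2, a paralog of Clec10a that marks a part of cDC2, ranged widely within cDC2, with 8.80, 24.0 and 81.4 CPM in cDC2 and 28.6, 32.1 and 38.3 CPM in pDC, and was not called (0.03 ± 0.51, adjusted p = 0.956).

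The transcription factors of each lineage separated the subsets beyond Tcf4. Of 21 pDC factors, 16 were higher in pDC and 3 in cDC2, against 33.8% and 34.2% of all genes, with a median of -1.98. Irf8, an interferon regulatory factor that cDC1 need to develop, had 30.7, 51.8 and 68.5 CPM in cDC2 and 3869, 4141 and 4438 CPM in pDC (-6.33 ± 0.23, adjusted p = 7.1e-12). Spib, an ETS factor that supports pDC survival, had 38.1, 48.5 and 89.99 CPM in cDC2 and 408, 478 and 501 CPM in pDC (-3.12 ± 0.20, adjusted p = 7.46e-09). Runx2, which controls the exit of pDC from bone marrow (-3.92 ± 0.09), Myb (-4.04 ± 0.13), Tsc22d1 (-4.16 ± 0.08) and Xbp1, the transcription factor of secretory cells (-2.10 ± 0.07), were higher in pDC without overlap. Nfil3 (2.03 ± 0.29, adjusted p = 3.61e-05) and the corepressor gene Cbfa2t3 (0.74 ± 0.10, adjusted p = 1.47e-05), which were listed with pDC, were higher in cDC2.

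Of 26 conventional factors, 21 were higher in cDC2 and 2 in pDC, against 34.2% and 33.8% of all genes, with a median of 2.07. Id2 had 605, 808 and 1049.8 CPM in cDC2 and 19.1, 21.4 and 24.6 CPM in pDC (5.23 ± 0.16, adjusted p = 5.25e-13), the opposite direction to Tcf4. Zbtb46 had 88.4, 107 and 125 CPM in cDC2 and 1.71, 2.84 and 3.93 CPM in pDC (5.21 ± 0.18, adjusted p = 4.13e-12). Batf3, best known for its role in cDC1, had 90.8, 99.0 and 105 CPM in cDC2 and 0.195, 0.281 and 0.569 CPM in pDC (8.20 ± 0.16, adjusted p = 3.85e-15). Tbx21, which encodes T-bet, differed by 7.70 ± 0.32, and Hes1, a target of Notch signalling, by 7.10 ± 0.22. Batf (-0.60 ± 0.07) and Hivep1 (-0.65 ± 0.11) were higher in pDC, and Stat3 did not pass (-0.07 ± 0.07, adjusted p = 0.41).

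Receptors for growth factors and cytokines went in both directions, with 13 of 25 higher in cDC2 and 10 higher in pDC. The shares of all genes were 34.2% and 33.8%. With total-count scaling 11 receptors were higher in each subset. Flt3, the receptor on which both lineages depend, differed little, with 334, 401 and 497 CPM in cDC2 and 273, 320.2 and 349 CPM in pDC (0.34 ± 0.09, adjusted p = 0.00344). Those ranges overlapped, and with total-count scaling the difference was 0.13 and did not pass (adjusted p = 0.214). Kit, the stem cell factor receptor, had 135, 159.3 and 185 CPM in cDC2 and 4.64, 8.08 and 10.2 CPM in pDC (4.33 ± 0.17). Ifngr1, the receptor chain that binds interferon gamma, had 809, 952 and 1144 CPM in cDC2 and 55.1, 65.4 and 69.1 CPM in pDC (3.91 ± 0.10, adjusted p = 4.16e-14). Ifnar2, a chain of the type I interferon receptor, went the other way with 190.3, 202 and 229 CPM in cDC2 and 554, 589 and 626 CPM in pDC (-1.52 ± 0.06, adjusted p = 1.25e-11). Csf2ra, a chain of the receptor of granulocyte-macrophage colony-stimulating factor, was higher in cDC2 (2.18 ± 0.10), as was Csf3r (4.57 ± 0.36). Csf2rb2 was higher in pDC (-2.89 ± 0.10). Il7r, the interleukin 7 receptor of lymphoid cells, differed by -4.27 ± 0.14 and Lifr, the receptor of leukemia inhibitory factor, by -5.47 ± 0.14.

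The toll-like receptors, which sense microbial lipids, proteins and nucleic acids, went in both directions. Of 26 receptors and adaptors, 14 were higher in cDC2 and 9 in pDC, against 34.2% and 33.8% of all genes. The other 3 were not called, and 12 and 11 were higher with total-count scaling. Tlr1, part of the receptor for bacterial lipoproteins, had 85.4, 92.6 and 102 CPM in cDC2 and 0.114, 0.520 and 0.740 CPM in pDC (7.72 ± 0.22, adjusted p = 5.18e-13). Its partner Tlr2 had 37.7, 70.8 and 90.7 CPM in cDC2 and 5.38, 6.28 and 6.86 CPM in pDC (3.44 ± 0.20, adjusted p = 1.67e-09). Tlr13, a sensor of bacterial ribosomal RNA, had 45.9, 54.8 and 64.0 CPM in cDC2 and 0.195, 0.223 and 0.317 CPM in pDC (7.84 ± 0.14, adjusted p = 2.41e-15). Tlr11, a sensor of profilin, differed by 6.76 ± 0.32 and its relative Tlr12 by -2.92 ± 0.28, in opposite directions. Ticam2, the adaptor TRAM of TLR4, was higher in cDC2 (3.90 ± 0.14), and Cd180, a relative of TLR4 on B cells, was higher in pDC (-0.97 ± 0.16).

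Tlr3, Tlr7 and Tlr9, whose products sense nucleic acids in endosomes, were called higher in pDC. The RNA sensor gene Tlr13, given above, went the other way. Tlr7, the sensor of single-stranded RNA, had 19.4, 28.9 and 40.2 CPM in cDC2 and 79.8, 90.2 and 104 CPM in pDC (-1.63 ± 0.13, adjusted p = 5.57e-08), without overlap. Tlr9, the sensor of unmethylated CpG DNA, was low in the counts of both subsets, with 1.59, 1.91 and 2.54 CPM in cDC2 and 2.33, 3.19 and 4.36 CPM in pDC, and its ranges overlapped although it passed (-0.70 ± 0.20, adjusted p = 0.0068). Tlr3, the sensor of double-stranded RNA, had 1.65, 2.38 and 3.97 CPM in cDC2 and 107, 119 and 138 CPM in pDC (-5.58 ± 0.17, adjusted p = 8.01e-13). Tasl, the adaptor that links TLR7 and TLR9 to interferon regulatory factors, was also higher in pDC (-1.67 ± 0.13). The shared adaptor gene Myd88 had 112, 115 and 129 CPM in cDC2 and 102, 112 and 115 CPM in pDC and was not called (0.11 ± 0.05, adjusted p = 0.0907). Tlr8 was listed for cDC2 alone, at 1.92 to 6.92 CPM with a median of 3.66.

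**Figure D3:**
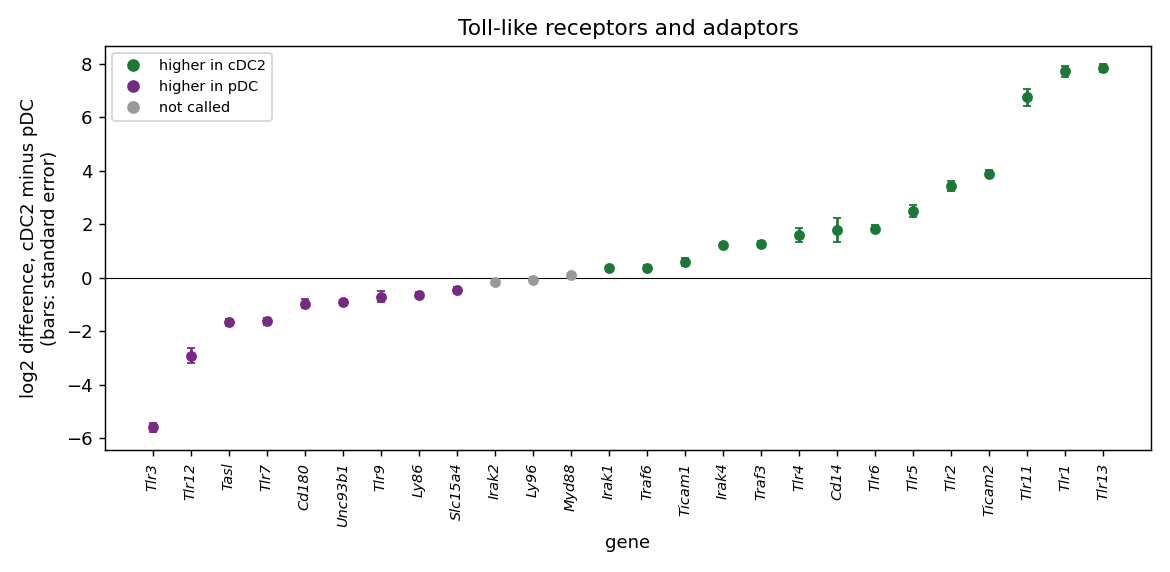
Log2 difference (cDC2 minus pDC) with its standard error for the 26 toll-like receptors and adaptors tested, in rising order and coloured by call. Tlr3, Tlr12, Tasl and Tlr7 lie lowest, and Tlr11, Tlr1 and Tlr13 lie highest.

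Cytosolic sensors and inflammasome genes leaned to cDC2, with 14 of 22 higher there, 5 higher in pDC and a median of 1.35. The shares of all genes were 34.2% and 33.8%. Ddx58, which encodes the RNA sensor RIG-I, had 22.97, 28.0 and 30.3 CPM in cDC2 and 1.20, 2.14 and 3.67 CPM in pDC (3.54 ± 0.20, adjusted p = 5.72e-10). Nlrp3, the sensor of the best-known inflammasome, had 34.7, 42.3 and 46.4 CPM in cDC2 and 0.908, 2.00 and 2.85 CPM in pDC (4.47 ± 0.19, adjusted p = 4.17e-11). The inflammasome sensor genes Nlrc4 (3.27 ± 0.14) and Nlrp1b (4.2 ± 0.44) were higher in cDC2, and Naip5, a partner of NLRC4, was higher in pDC with overlapping ranges (-0.60 ± 0.11). Sting1, the adaptor for cytosolic DNA, was higher in pDC (-0.71 ± 0.06, adjusted p = 3.6e-08), as was the kinase gene Ikbke (-1.90 ± 0.19).

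Interferon-stimulated genes did not move as a block. Of 45 tested, 24 were higher in cDC2 and 13 in pDC, against 34.2% and 33.8% of all genes. The median was 0.53, and the counts were 23 and 15 with total-count scaling. Irf7, the factor that amplifies interferon transcription, had 76.1, 80.2 and 91.7 CPM in cDC2 and 299, 319.7 and 353 CPM in pDC (-1.98 ± 0.07, adjusted p = 9.82e-13), without overlap. Its exons overlap those of Phrf1 on the other strand. Iigp1 (-2.81 ± 0.22), Ifi47 (-1.85 ± 0.09) and Trim30a (-1.57 ± 0.08) were also higher in pDC. The antiviral membrane protein genes Ifitm1 (7.39 ± 0.23) and Ifitm2 (6.39 ± 0.26), the chemokine gene Cxcl9 (6.86 ± 0.36), Rtp4 (7.31 ± 0.21) and Oas2 (6.22 ± 0.45) were higher in cDC2. Ifitm2 had 818, 1074 and 1317 CPM in cDC2 and 7.95, 12.04 and 19.3 CPM in pDC. Since all samples are from mice given PolyI/C, no unstimulated level of these genes can be given.

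Transcripts of the interferons themselves were at the edge of detection in pDC. Ifnb1 was listed for pDC alone with 39 counts over the 6 samples, Ifnl2 with 12 and Ifna2 with 10. Their medians were 0.139, 0.0707 and 0.0201 CPM.

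Genes of MHC class II presentation were higher in cDC2. The cDC2 gate asked for MHC class II protein and the pDC gate did not. Of 16 tested, 14 were higher in cDC2 and 1 in pDC, against 34.2% and 33.8% of all genes, with a median of 1.64. Their summed level was 119200 to 141600 CPM in cDC2 and 35780 to 50510 CPM in pDC. H2-Eb1 had 15540.0, 17538 and 17735 CPM in cDC2 and 2059, 2323 and 3114 CPM in pDC. Ciita, the master activator of these genes, had 459, 473 and 555 CPM in cDC2 and 61.9, 73.8 and 99.0 CPM in pDC (2.68 ± 0.11, adjusted p = 1.12e-11). Because the cDC2 gate asked for the product of genes that it activates, its difference is not independent of the sort. H2-Eb2 had 75.8, 90.3 and 94.3 CPM in cDC2 and 1.22, 1.93 and 3.24 CPM in pDC. H2-DMb2 (2.60 ± 0.12) and H2-Ob (3.81 ± 0.18), whose products edit the bound peptides, were also higher. Rfxank, a subunit of the promoter-binding complex, was slightly higher in pDC with overlapping ranges (-0.35 ± 0.08, adjusted p = 0.0012).

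MHC class I genes leaned the other way by less. Of 25 tested, 14 were higher in pDC and 7 in cDC2, against 33.8% and 34.2% of all genes. The median was -0.19, and the counts were 17 and 3 with total-count scaling, where 36.4% of all called genes were higher in cDC2. H2-Q7, a nonclassical gene with close copies, had 340.3, 449 and 535 CPM in cDC2 and 873, 1175 and 1606 CPM in pDC (-1.50 ± 0.16, adjusted p = 1.06e-06). H2-T22 had the same direction (-1.50 ± 0.08). The classical gene H2-K1 did not pass with TMM (-0.19 ± 0.11, adjusted p = 0.144) and passed with total-count scaling at a difference of -0.40. B2m, the common light chain, was higher in cDC2 (0.45 ± 0.12, adjusted p = 0.00306). Cd1d1, which presents lipids (1.38 ± 0.12), and Psme2, a proteasome activator subunit (0.65 ± 0.07), were higher in cDC2 too.

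The proteases of the endosome differed gene by gene. Of 23 tested, 11 were higher in each subset with TMM, and 8 were higher in cDC2 and 12 in pDC with total-count scaling. With TMM the shares of all genes were 34.2% and 33.8%. Ctsl, which encodes cathepsin L, had 19.9, 26.7 and 38.7 CPM in cDC2 and 2349, 2491 and 2763 CPM in pDC (-6.50 ± 0.20, adjusted p = 8.57e-13). Ctsb, cathepsin B, had 644, 731 and 902 CPM in cDC2 and 5016, 5627 and 6296 CPM in pDC (-2.90 ± 0.11, adjusted p = 4.33e-12). Ctse followed them (-2.21 ± 0.23).

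Uptake receptors showed large differences in both directions. Among 25 lectins and related receptors, 14 were higher in cDC2 and 8 in pDC, against 34.2% and 33.8% of all genes. With total-count scaling the counts were 13 and 10. Clec7a, which encodes the beta-glucan receptor Dectin-1, had 520.3, 916 and 1463 CPM in cDC2 and 1.32, 2.16 and 3.78 CPM in pDC (8.60 ± 0.45, adjusted p = 1.72e-09). Clec4a3 (9.11 ± 0.58) and the sialic acid receptor gene Siglece (7.10 ± 0.23) followed. Cd209d, a relative of DC-SIGN, had 2.92, 3.54 and 5.29 CPM in cDC2 and 757, 1305 and 2229.8 CPM in pDC (-8.56 ± 0.33, adjusted p = 4.97e-11). Clec9a, the cDC1 receptor for dead cells, was higher in pDC than in cDC2 (-3.65 ± 0.13). Msr1 and Cd209b, scavenger and lectin receptors, were listed for cDC2 alone, at medians of 12.4 and 11.9 CPM. Among 24 Fc and inhibitory receptors, 12 were higher in cDC2 and 9 in pDC, against the same 34.2% and 33.8%. Fcrla, an intracellular Fc receptor-like protein of B cells, differed by -8.03 ± 0.20.

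Receptors for homing differed in both directions. Of 26 trafficking genes, 10 were higher in cDC2 and 11 in pDC, against 34.2% and 33.8% of all genes, so the count does not set these genes apart. Ccr7, which directs dendritic cells to T-cell zones, had 1145, 1258 and 1795 CPM in cDC2 and 8.69, 16.8 and 19.2 CPM in pDC (6.42 ± 0.22, adjusted p = 3.64e-12). Cxcr3 had 0.545, 2.22 and 4.15 CPM in cDC2 and 137, 156.6 and 178 CPM in pDC (-6.02 ± 0.34, adjusted p = 3.62e-09). P2ry14, a receptor for UDP-sugars, differed by -5.78 ± 0.16 and S1pr4, a sphingosine 1-phosphate receptor, by -4.17 ± 0.27. Among 29 adhesion genes, 15 were higher in cDC2 and 11 in pDC, against the same 34.2% and 33.8%. The tetraspanin genes Cd9 (5.17 ± 0.24) and Cd81 (5.54 ± 0.23) and the adhesion gene Vcam1 (4.45 ± 0.46) were higher in cDC2, and Itgal (-1.97 ± 0.12), Itgad (-2.01 ± 0.15), Cadm1 (-2.03 ± 0.16) and Jaml (-2.01 ± 0.22) were higher in pDC. The sort gene Itgax had 299, 307 and 337 CPM in cDC2 and 56.3, 65.3 and 78.6 CPM in pDC, the order that the CD11c gates set. Cdh1, E-cadherin, was listed for pDC alone at 76.2 to 92.5 CPM.

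Genes of T-cell activation were strongly biased to cDC2. Of 21 costimulatory and checkpoint genes, 14 were higher in cDC2 and 3 in pDC, against 34.2% and 33.8% of all genes. The median was 2.65, and the counts were 14 and 5 with total-count scaling. Cd86 had 217, 233 and 259 CPM in cDC2 and 6.39, 7.61 and 9.65 CPM in pDC (4.92 ± 0.10, adjusted p = 5.78e-15). Cd80 had 84.6, 97.5 and 119 CPM in cDC2 and 0.825, 1.11 and 1.58 CPM in pDC (6.44 ± 0.15, adjusted p = 1.94e-14). Both encode ligands of CD28. Cd83, a marker of mature dendritic cells, had 2614, 3326 and 4987 CPM in cDC2 and 20.2, 35.8 and 51.9 CPM in pDC (6.54 ± 0.27, adjusted p = 4.73e-11). Pdcd1lg2, which encodes PD-L2 (5.95 ± 0.21), and Tnfsf14 (5.26 ± 0.67) were higher in cDC2. Cd276 (-2.85 ± 0.26) and Lgals9 (-1.57 ± 0.15) joined Lag3 in the opposite direction.

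Cytokine transcripts followed the same bias, with 16 of 21 higher in cDC2 and 1 in pDC, against 34.2% and 33.8% of all genes. Their median was 2.56. Il1b had 3988, 6449.9 and 8433 CPM in cDC2 and 11.1, 16.3 and 29.3 CPM in pDC (8.48 ± 0.31, adjusted p = 1.55e-11). Il1rn, its natural antagonist, differed by 8.96 ± 0.54, and Il6 had 13.3, 21.3 and 34.9 CPM in cDC2 and 0.0698, 0.281 and 0.797 CPM in pDC (6.0 ± 0.41). Vegfa, a vascular growth factor, was higher in cDC2 (6.42 ± 0.51). The subunits of interleukin 12 lay on opposite sides. Il12b, the p40 subunit, had 47.3, 68.1 and 94.7 CPM in cDC2 and 0.0840, 0.263 and 0.429 CPM in pDC (8.0 ± 0.27, adjusted p = 3.66e-12). Il12a, the p35 subunit, had 0, 0.0532 and 0.339 CPM in cDC2 and 8.96, 28.2 and 41.5 CPM in pDC (-8.07 ± 0.60, adjusted p = 5.59e-08). Neither subunit's groups overlapped.

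Of 15 chemokines, 11 were higher in cDC2 and 3 in pDC, against 34.2% and 33.8% of all genes, with a median of 4.09. Cxcl16 had 192, 228 and 275 CPM in cDC2 and 0.321, 0.789 and 1.04 CPM in pDC (8.20 ± 0.18, adjusted p = 2.32e-14). Ccl5 spread widely within cDC2, at 291, 498 and 919.6 CPM, and had 0.522, 2.48 and 4.95 CPM in pDC (7.71 ± 0.54, adjusted p = 6.51e-08). Ccl22 (7.52 ± 0.45) and Ccl9 (6.55 ± 0.26) followed. Ccl4, which encodes MIP-1 beta, was higher in pDC, with 389, 618 and 1164 CPM in cDC2 and 1438, 1878 and 4115 CPM in pDC (-1.83 ± 0.35, adjusted p = 0.000435). Its neighbour Ccl3 leaned the other way and did not pass (1.21 ± 0.51, adjusted p = 0.0518). Pf4, a platelet chemokine, was called higher in pDC (adjusted p = 0.0436) on a single library, at 109 CPM against 0.224 to 3.66 CPM in the other 5. Without it the log2 difference of Pf4 was 0.11 (adjusted p = 0.892).

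**Figure D4:**
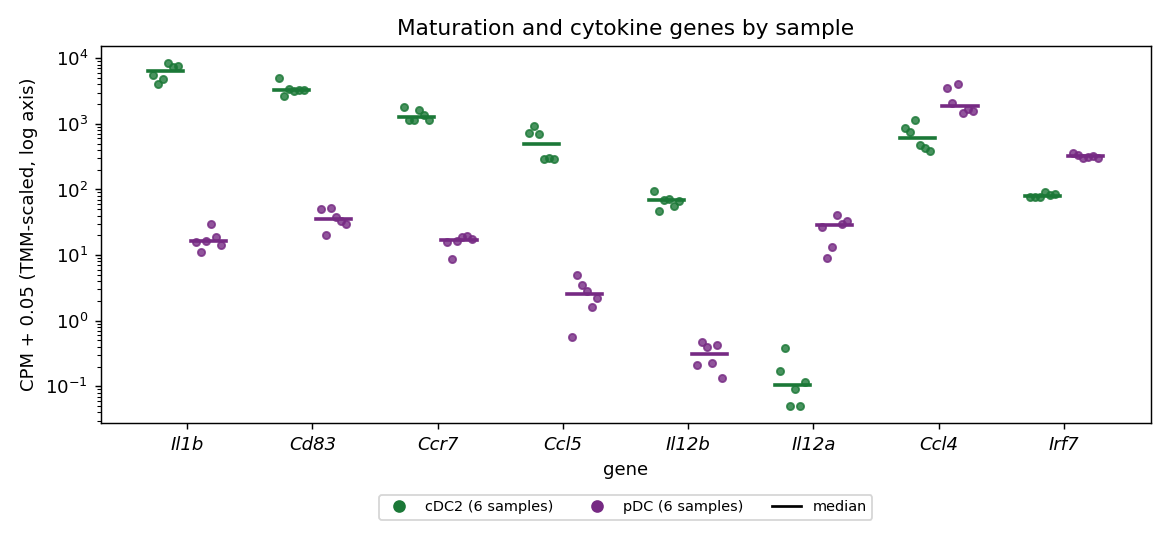
CPM plus 0.05 on a log axis for 8 maturation, cytokine and interferon genes, with 1 point per sample and a bar at each group's median (6 cDC2, 6 pDC). Il1b, Cd83, Ccr7, Ccl5 and Il12b are higher in every cDC2 sample, and Il12a, Ccl4 and Irf7 are higher in every pDC sample.

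Immediate-early and dissociation genes were also higher in cDC2, and the cells had been freed by enzyme digestion before sorting. Of 32 tested, 21 were higher in cDC2 and 3 in pDC, against 34.2% and 33.8% of all genes, with a median of 1.20. The summed level was 18240 to 27440 CPM in cDC2 and 6746 to 11920 CPM in pDC. Dusp1, a phosphatase gene induced by stress, had 1502, 2345 and 2731 CPM in cDC2 and 52.5, 60.0 and 134 CPM in pDC (4.81 ± 0.30, adjusted p = 6.3e-09). Egr3 (5.08 ± 0.23), Egr2 (4.93 ± 0.33) and Dusp2 (4.60 ± 0.11) followed, while Klf2 (-1.30 ± 0.17), Jund (-0.73 ± 0.22) and the heat shock gene Dnajb1 (-1.03 ± 0.26) were higher in pDC. Their part in the differences of cytokine and maturation genes was not tested.

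Genes of the Notch pathway, which splenic cDC2 need, went in both directions. Of 26 tested, 9 were higher in cDC2, a share close to the 34.2% of all genes, and 13 in pDC, where 33.8% of all genes were. The receptor gene Notch1 had 0.774, 0.995 and 2.20 CPM in cDC2 and 26.3, 34.4 and 39.9 CPM in pDC (-4.78 ± 0.23, adjusted p = 1.07e-10). Values of Notch2, the receptor gene on which the cDC2 marked by Esam depend, are not reported here. The ligand genes Dll4 (-4.53 ± 0.27, adjusted p = 4.05e-09) and Dll1 (-6.41 ± 0.45, adjusted p = 5.19e-09) were also higher in pDC, whereas the ligand gene Jag1 was higher in cDC2 (6.13 ± 0.41, adjusted p = 3.25e-09). The target genes Hes1, with 60.2, 70.9 and 117 CPM in cDC2 and 0.419, 0.536 and 0.857 CPM in pDC, and Dtx1, with 48.9, 103 and 180.3 CPM and 0.308, 0.431 and 0.810 CPM, were higher in cDC2. Lfng, a glycosyltransferase that tunes the receptors, was higher there as well (6.08 ± 0.20), and the coactivator gene Maml2 was higher in pDC (-3.08 ± 0.15).

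Genes that pDC share with the B lineage were higher in pDC in 13 of 19 cases and higher in cDC2 in 1, with a median of -1. The shares of all genes were 33.8% and 34.2%. Blnk, an adaptor of the B-cell receptor, had 2.05, 3.24 and 3.89 CPM in cDC2 and 418, 433 and 462 CPM in pDC (-7.15 ± 0.13, adjusted p = 1.99e-15). Dntt, Ly6d, Fcrla and Spib, given above, belong to the same list.

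The secretory pathway was higher in pDC over many genes by small amounts. Of 47 genes of the endoplasmic reticulum and the unfolded protein response, 36 were higher in pDC and 2 in cDC2. The shares of all genes were 33.8% and 34.2%. The list's median was -0.64, and 11 of the 36 reached 2-fold, against 12.7% of all genes at least 2-fold higher in pDC. With total-count scaling 42 were higher in pDC and 2 in cDC2. Xbp1 had 141, 158.6 and 175 CPM in cDC2 and 618, 672 and 729 CPM in pDC (-2.10 ± 0.07, adjusted p = 8.97e-13). Hsp90b1, the chaperone GRP94 that folds toll-like receptors, had 269, 298 and 356 CPM in cDC2 and 1019, 1104 and 1265 CPM in pDC (-1.85 ± 0.08, adjusted p = 2.92e-11). Tram1 (-1.61 ± 0.06), Manf (-1.56 ± 0.07) and Edem2 (-1.44 ± 0.08) followed. Sdf2l1 (1.0 ± 0.07) and Sel1l (0.43 ± 0.06) were higher in cDC2.

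Proliferation genes were higher in cDC2 with few exceptions. Of 47 cell cycle genes, 44 were higher in cDC2 and 1 in pDC, against 34.2% and 33.8% of all genes. The median was 2.03, and 41 reached 2-fold, against 17.4% of all genes at least 2-fold higher in cDC2. With total-count scaling 41 were higher in cDC2. Mki67, the proliferation antigen, had 19.4, 26.9 and 35.7 CPM in cDC2 and 1.57, 3.44 and 5.04 CPM in pDC (2.99 ± 0.25, adjusted p = 1.08e-07). Rrm2, which supplies nucleotides for DNA synthesis, had 72.6, 80.9 and 96.4 CPM in cDC2 and 2.69, 11.3 and 15.8 CPM in pDC (3.04 ± 0.36, adjusted p = 6.82e-06). E2f2 (3.79 ± 0.16), Bub1 (3.03 ± 0.27) and Ccne1 (2.85 ± 0.16) followed. Cdk6 was slightly higher in pDC with overlapping ranges (-0.34 ± 0.11, adjusted p = 0.0126), and Foxm1 was not called (-0.22 ± 0.23, adjusted p = 0.404).

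Inhibitors of the cycle and survival genes were mostly higher in cDC2 too, in 16 of 23 cases against 5 in pDC. The shares of all genes were 34.2% and 33.8%, and the counts were 14 and 7 with total-count scaling. Cdkn1a, which encodes p21, had 121, 244 and 446 CPM in cDC2 and 5.22, 14.2 and 17.5 CPM in pDC (4.35 ± 0.42, adjusted p = 1.26e-06). Cdkn2d, which encodes p19 of the INK4 family, had 20.5, 25.2 and 29.0 CPM in cDC2 and 155, 176 and 209 CPM in pDC (-2.85 ± 0.10, adjusted p = 2.64e-12). Cdkn2b, which encodes p15, was higher in cDC2 (7.75 ± 0.41), and Cdkn2c, which encodes p18 (-0.87 ± 0.09), and the death gene Bad (-0.78 ± 0.07) were higher in pDC. Bcl2a1b (8.76 ± 0.16) and Bcl2a1d (9.02 ± 0.18), close copies of Bcl2a1a, were higher in cDC2.

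Lipid genes went in both directions. Of 35 tested, 20 were higher in pDC and 11 in cDC2, against 33.8% and 34.2% of all genes. The median was -0.69, and the counts were 23 and 9 with total-count scaling. Named enzymes of cholesterol synthesis were on the pDC side. Fdps had 26.9, 43.5 and 68.5 CPM in cDC2 and 199, 236 and 254 CPM in pDC (-2.37 ± 0.19, adjusted p = 1.12e-07), and Sqle (-2.48 ± 0.21), Msmo1 (-2.26 ± 0.13) and Dhcr7 (-2.47 ± 0.11) had the same direction. On the cDC2 side were the fatty acid-binding protein gene Fabp5, with 378, 457 and 787 CPM in cDC2 and 14.8, 20.8 and 31.9 CPM in pDC (4.51 ± 0.23, adjusted p = 8.68e-10), and the nuclear receptor genes Pparg (4.73 ± 0.40) and Nr1h3, which encodes LXR alpha (4.66 ± 0.33).

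Genes of energy metabolism differed in part. Of 26 glycolysis genes, 15 were higher in cDC2 and 5 in pDC with TMM, against 34.2% and 33.8% of all genes. The counts were 10 and 7 with total-count scaling. The hexokinase genes Hk2 (3.97 ± 0.18) and Hk3 (3.36 ± 0.25), the regulator Pfkfb3 (4.15 ± 0.12), the enolase gene Eno3 (4.31 ± 0.19) and the lactate exporter gene Slc16a3 (4.38 ± 0.46) were higher in cDC2. Aldoc (-3.77 ± 0.19) and Ldhb (-2.96 ± 0.37) were higher in pDC. Of 43 oxidative phosphorylation genes, 24 were not called, 11 were higher in cDC2 and 8 in pDC, below the TMM background in both directions. The split became 2 and 25 with total-count scaling, where 36.4% of all called genes were higher in cDC2. Apart from Cox6a2, the named members moved by less than 1 log2 unit, from -0.61 ± 0.05 in Sdhb and -0.43 ± 0.06 in Ndufs3 to 0.44 ± 0.07 in Cox5a and 0.53 ± 0.05 in Ndufa8.

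Ribosomal protein genes were higher in cDC2 in 31 of 33 cases and higher in pDC in none, against 34.2% and 33.8% of all genes. Their median was 0.52, and the counts were 21 and 1 with total-count scaling. Rps19 (1.45 ± 0.09) had the largest difference of the 33, and Rpl10 did not pass with TMM (-0.19 ± 0.10, adjusted p = 0.103).

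The histone deacetylases and the subunits of HDAC1 complexes were called in both directions. Of 35 tested, 12 were higher in cDC2 and 14 in pDC, with a median of 0.016, and 6 and 17 with total-count scaling. With TMM these shares are near the 34.2% and 33.8% of all genes. With total-count scaling 36.4% of all called genes were higher in cDC2, so the whole transcriptome moved toward pDC too. Hdac1 itself, the floxed gene, had 6.23, 40.1 and 85.2 CPM in cDC2 and 8.51, 59.4 and 118 CPM in pDC and was not called (-0.52 ± 0.94, adjusted p = 0.643). The ranges within each subset were wide and overlapped, and the labels put both genotypes in each subset. No library lay near either median. Columns of cDC2 had either 71.9 to 85.2 CPM or 6.23 to 8.29 CPM. Those of pDC had either 105.7 to 117.7 CPM or 8.51 to 13.1 CPM. At the high level and at the low level, every pDC column was above every cDC2 column. A difference within a level was not tested, so the missing call does not show equal levels. Among the others, Hdac5 was higher in pDC, with 11.2, 11.9 and 15.2 CPM in cDC2 and 36.1, 38.0 and 39.4 CPM in pDC (-1.58 ± 0.08, adjusted p = 1.81e-10). Rcor2 (-2.45 ± 0.35) and Rcor3 (-1.51 ± 0.09), of the CoREST complex, were higher in pDC. Chd3, of the NuRD complex (1.94 ± 0.08), Sap18 (1.57 ± 0.14) and Rbbp7 (1.11 ± 0.05) were higher in cDC2.

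**Figure D5:**
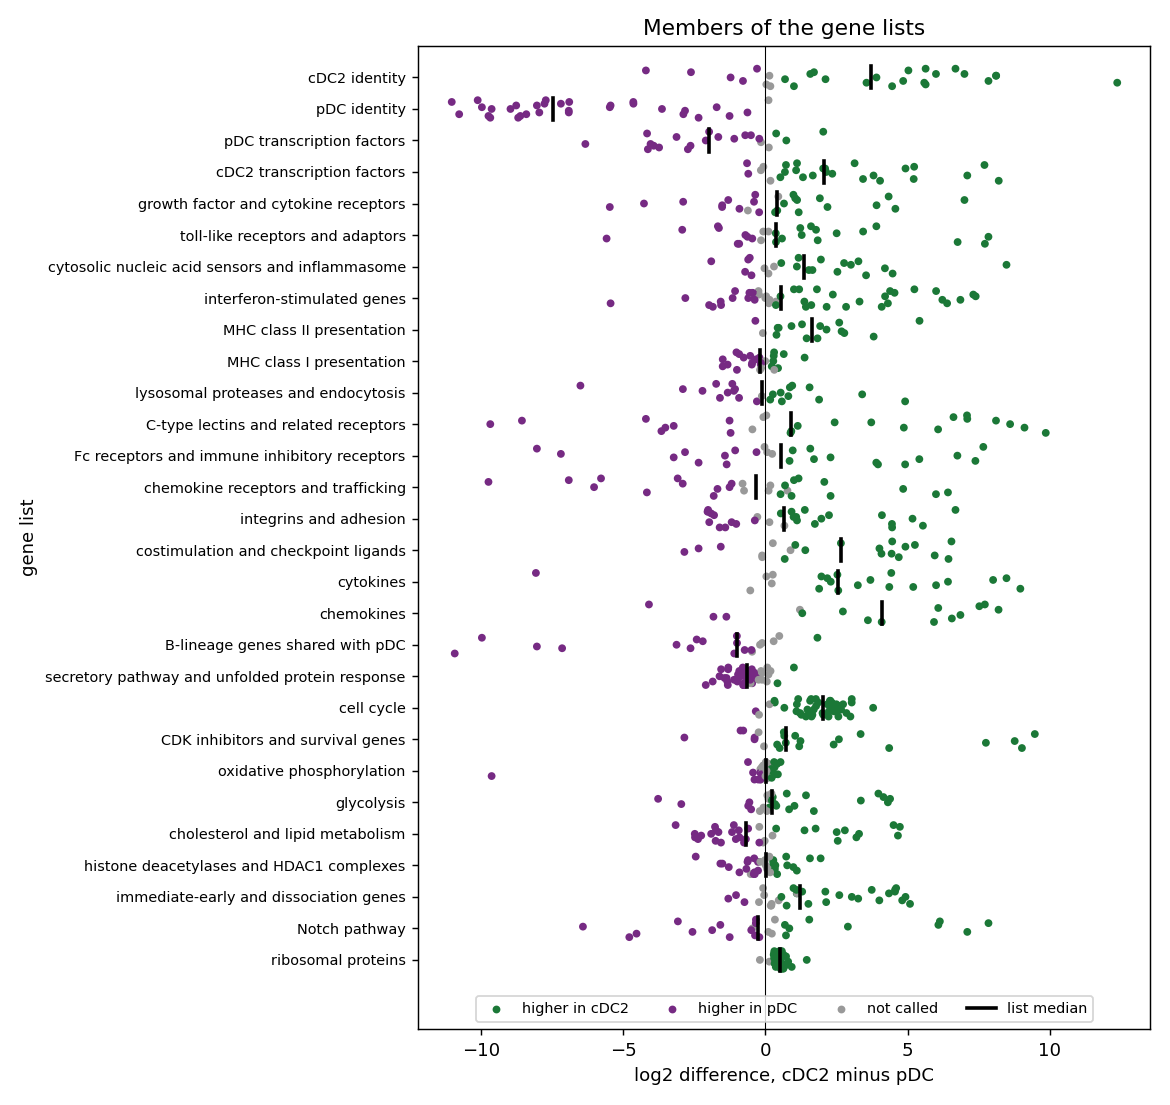
Log2 difference (cDC2 minus pDC) of each tested member of the gene lists other than markers of other cell types, coloured by call, with a black bar at the list's median. Among the lists shown, the pDC identity list lies furthest to the left (median -7.45), the chemokine and cDC2 identity lists lie furthest to the right (medians 4.09 and 3.73), and the cell cycle list lies almost wholly to the right of 0.

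Markers of other cell types moved with some of these groups. Of 17 monocyte and macrophage markers tested, 16 were higher in cDC2 and 1, Ly6c2, in pDC. Their summed level was 3462 to 11870 CPM in cDC2 and 6052 to 7249 CPM in pDC, where Ly6c2 made up most of it. Lyz2 had 2654, 4229 and 10435 CPM in cDC2 and 8.57, 23.4 and 49.9 CPM in pDC (7.72 ± 0.57), Adgre1, which encodes F4/80, differed by 7.49 ± 0.25, and C1qb had 66.5, 126 and 196 CPM in cDC2 and 1.71, 3.74 and 4.13 CPM in pDC (5.26 ± 0.30). Fcgr1, the gene of the CD64 that both gates excluded, had 0.901, 3.44 and 5.999 CPM in cDC2 and 0, 0.0479 and 0.280 CPM in pDC. Xcr1, the gene of the other receptor excluded from the cDC2 gate, had 7.04, 8.68 and 10.6 CPM in cDC2 and 1.24, 1.69 and 2.61 CPM in pDC. The part of monocytes or macrophages in the cDC2 side of the cytokine, lectin and lipid lists was not tested.

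Of 15 B-cell markers, 9 were higher in pDC and 5 in cDC2, with summed levels of 368.3 to 583.4 CPM in cDC2 and 2598 to 3214 CPM in pDC. Ighm had 247, 325 and 365 CPM in cDC2 and 1716, 1965 and 2100.3 CPM in pDC (-2.63 ± 0.10), and Igkc 6.55, 45.6 and 92.6 and 366, 682 and 977 CPM (-3.77 ± 0.56). The 5 on the cDC2 side included Cd22, an inhibitory receptor, with 49.0, 66.4 and 95.1 CPM in cDC2 and 1.73, 2.20 and 3.27 CPM in pDC (4.87 ± 0.21), Ms4a1, which encodes CD20 (2.40 ± 0.35), and the adaptor gene Bank1 (2.38 ± 0.34). Pax5 had too few counts to be tested. Of 11 T-cell markers, 6, among them Il7r, were higher in pDC and 1 was higher in cDC2, and the 4 genes of the CD3 complex were not called. Their summed levels were 30.9 to 51.3 CPM in cDC2 and 462.2 to 665.4 CPM in pDC, where Il7r alone had 237.6 to 300.7 CPM. Erythroid markers summed to 3587 to 6224 CPM in cDC2 and 2385 to 6410 CPM in pDC, and 11 of 13 were not called. Neutrophil markers summed to 56.3 to 184.5 CPM in cDC2 and 13.8 to 274.4 CPM in pDC, and 7 of 9 were not called. Of 7 NK-cell markers, 4 were not called, and 7 of 10 basophil markers did not enter the test. Of 15 cDC1 markers, 8 were higher in cDC2 and 6 in pDC. Of 11 transitional dendritic cell markers, 7 were higher in cDC2 and 4 in pDC. The counts of all these markers stand against 34.2% of all genes higher in cDC2 and 33.8% higher in pDC.

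A last set of genes was listed for a single subset and entered no test. There were 931 genes in the cDC2 table that were not in the pDC table, of which 97 had a median of at least 1 CPM, and 902 in the pDC table alone, of which 71 did. Every gene in a table had at least 10 counts over its 6 columns, so a gene that is not listed is taken as under that level or left out for another reason. The highest in cDC2 were Hap1 (30.4, 45.0 and 64.4 CPM), Sucnr1, the succinate receptor (24.6, 32.8 and 52.0 CPM), and Asprv1 (18, 22.9 and 57.4 CPM). The highest in pDC were Cdh1 (76.2, 83.5 and 92.5 CPM), Fbxl13 (45.8, 52.6 and 65.9 CPM) and Fyb2 (34.4, 40.7 and 50.0 CPM). Cytokine and costimulatory genes among those listed for cDC2 alone included Tnfsf13, which encodes APRIL (median 5.73 CPM), Il27 (2.87 CPM), Tnfsf4 (1.79 CPM), Cd70 (1.07 CPM), Ccl17 (0.608 CPM) and Il10 (0.415 CPM).

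Some named genes share exonic bases with another gene in GENCODE M21. The overlap is on the same strand for Bcl2a1b, Ccr9, Clec9a, Csf2rb2, Ctsl, Fdps, Foxm1, Grm8, Hdac5, Hsp90b1, Ifi47, Ifitm2, Ifnar2, Itgad, Maml2, Manf, Nr1h3, Rpl10, Rtp4, Sap18 and Ticam2. It is on the opposite strand for Atp2a1, Bad, Cbfa2t3, Cd180, Cd22, Cd276, Cd81, Cd9, Cdk6, Cdkn1a, Ciita, Cox5a, Csf1r, Ctsb, Cx3cr1, Cxcl16, Dll1, Dll4, Dusp1, H2-T22, Hk3, Ikbke, Il1b, Jaml, Jund, Myb, Myd88, Ndufs3, Notch1, Rbbp7, Rcor3, Rfxank, Runx2, Sirpb1b, Stat3, Tgm2, Tlr3 and Vcam1. Whether the counting used strand is not stated, so the reads of these genes may include those of their neighbours.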

How the data were processed

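Sorted splenic cDC2 and pDC were profiled by RNA-seq, with libraries from the SMARTER mRNA-seq kit per the labels' protocols. The tools kallisto and DESeq2 and the build GRCm38 appear in the submitters' processing notes, with neither versions nor roles stated. The authors deposited whole-number counts per gene in a raw table for each subset, and these deposited counts were used here. The deposited normalized tables were scaled for each subset separately and were not used. Column names are codes, so samples were grouped by subset, which the table's name gives.

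Genes in both tables were joined, filtered with filterByExpr (minimum count 10), normalized with TMM and tested with edgeR 4.0.16 (R 4.3.3, quasi-likelihood F-test, Benjamini-Hochberg adjustment over all genes tested, threshold 0.05). The alternatives were other scalings, other filters, DESeq2 1.42.0, limma-voom (limma 3.58.1), a fit on all 18 columns, larger minimum folds and leaving out each sample. Positions and exon overlaps came from GENCODE M21.

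The members and gene lists were chosen with earlier results of these data known. The rule for names took the 4 markers, the 12 called genes with the largest difference in each direction (at least 50 CPM in the higher subset, groups not overlapping), and in each list up to 5 called genes in each direction and up to 3 abundant genes that were not called. The text names most but not all of these, and a few are not reported here. Itgax, Flt3, Tlr9 and the genes listed for a single subset were named after their values were seen.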

Additional observations from a re-analysis of the deposited data

Results flagged for a closer look

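Among the named genes, 440 groups of 6 samples were examined for a sample whose gap to its nearest neighbour, divided by the group's range, exceeded Dixon's 95% critical value, and 32 were found. Chance alone gives about 1 in 20. The values are CPM, and the ranges are those of the other 5 samples of the subset.

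In pDC, column a164 stood apart for Pf4 (108.8 against 0.224 to 3.66), Cd9 (19.6 against 6.46 to 9.05), Esam (2.32 against 0.224 to 0.512), Tnfsf14 (0.599 against 0 to 0.142) and H2-DMb2 (368 against 218.2 to 273.7). Pf4 and Cd9 are also expressed by platelets. Column a162 stood apart for Dll4 (26.4 against 47.4 to 59.3), Ccr7 (8.69 against 15.8 to 19.2), Ifngr1 (55.1 against 64.6 to 69.1), Cd180 (90.6 against 60.7 to 66.4) and Sirpb1b (0.624 against 0.141 to 0.314). Column a159 stood apart for Ifitm1 (0.401 against 1.17 to 1.62) and Tlr11 (0.281 against 0.039 to 0.106). Column a168 did so for Cxcl9 (1.36 against 0.168 to 0.585) and Bad (46.2 against 36.5 to 40.1), and column a171 for Mefv (0.228 against 0 to 0.0779).

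In cDC2, column a167 stood apart for Lyz1 (257.8 against 47.5 to 117.4), Fabp5 (787.3 against 378.3 to 482.8), Ikbke (2.69 against 1.39 to 1.81) and Clec4a4 (261.4 against 323.7 to 338.4). Column a158 did so for Cd83 (4987 against 2614 to 3440.0), Cdkn2c (30.1 against 20.1 to 22.8), Clec4a2 (145.2 against 169.3 to 183.5) and Ccr9 (7.60 against 5.75 to 6.39). Column a161 did so for Ciita (555.3 against 459.3 to 480.0), Klk1 (3.68 against 0.671 to 0.96), Il12a (0.339 against 0 to 0.12) and Grm8 (0.212 against 0.0385 to 0.0819). Column a165 did so for Ccne1 (11.9 against 8.29 to 9.60) and Dhcr7 (8.93 against 6.08 to 7.13), column a170 for Atp2a1 (0.385 against 0.0423 to 0.164) and Dntt (0.308 against 0 to 0.0847), and column a173 for Rcor2 (0.355 against 0.08 to 0.168).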

How the results depend on the processing

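No paired analysis was possible because the column codes carry no replicate number. The count of called genes was 8874 and ranged from 8675 to 8840 when a sample was left out. It was 7886 with a minimum of 50 counts, 9083 with no filter, 8983 with DESeq2, 8931 with limma-voom and 9281 with total-count scaling. Stricter folds lowered it by construction, to 4593 against a 1.5-fold minimum and to 3924 with at least 2-fold. The genes higher in cDC2 then numbered 2542 and 2267, and the genes higher in pDC 2051 and 1657.

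Of 220 genes, 210 kept their direction and call under every other scaling, filter and tool and with each sample left out. The larger minimum folds were applied to counts of genes and not to single genes. The log2 difference of Irf4 became -0.026 with total-count scaling and ranged from -0.0055 to 0.28 with a sample left out. The log2 difference of Mgl2 became -0.21 with total-count scaling and -0.45 with limma-voom, and ranged from -0.43 to 0.24 with a sample left out. With total-count scaling the log2 difference of Tspan13 became -0.11 and the log2 difference of Myd88 -0.11. The log2 difference of Pf4 ranged from -4.34 to 0.11 with a sample left out, the last without pDC column a164. Ccl3 passed under some alternatives and not others (difference 0.947 to 1.58). For other reversals the cause was not tested. Genes near 0 in a subset have folds set by a few counts.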

Other observations

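The second principal component, 3.93% of the variance, divided each subset into 3 columns on one side and 3 on the other. Hdac1 was 78.7, 71.9 and 85.2 CPM in the cDC2 columns a158, a161 and a165, and 6.84, 6.23 and 8.29 CPM in a167, a170 and a173. In pDC it was 111.5, 105.7 and 117.7 CPM in columns a159, a162 and a164, and 11.8, 8.51 and 13.1 CPM in a168, a171 and a174. The second component took values of 20.9, 29.5, 25.9, -28.9, -19.9 and -26.3 in the cDC2 columns and 18.02, 13.6, 12.9, -18.2, -12.2 and -15.3 in the pDC columns, in the same order. The columns carry no genotype label, and none was assigned from these values.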
